A study of Mus musculus with 200 samples.

Results

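The backcross generation of this mouse series divides at the RNase P RNA gene Rpph1, on chromosome 14, into embryos that carried 1 Cast and 1 B6 copy (B6/Cast) and embryos that carried B6 copies only (B6/B6). B6 is the inbred strain C57BL/6J and Cast the wild-derived inbred strain CAST/EiJ. The members were chosen by the deposited genotype code in the Rpph1 row, 0.5 for B6/Cast and 1.0 for B6/B6. The code was called in 154 N2 embryos, and 147 of these also had a somite number (84 B6/Cast and 63 B6/B6) of the 184 embryos in the expression tables. The comparison was proposed with the level of Pop1, a gene of chromosome 15, in view, so the differences of Pop1 and of Rpph1 between the genotypes are given as a description with no test.

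Every embryo was a single whole E11.5 embryo, dissected free of membranes and placenta, and was profiled by 3SEQ, which sequences the 3′ ends of purified mRNA. The N2 embryos came from F1 animals, themselves born to B6 mothers and Cast fathers, backcrossed to B6 in either direction. Of the B6/Cast embryos 46 had a B6 mother and 38 an F1 mother, and of the B6/B6 embryos 39 and 24. In all N2 embryos the mitochondria were B6, 1 copy of each autosome was B6, and the other was a mosaic of B6 and Cast that changed only where the F1 parent had recombined. Each group is therefore defined by a long linked stretch of chromosome 14 and not by Rpph1 alone, and B6/Cast here always means 1 Cast copy, since no embryo could carry a pair of them. Another 16 F1 embryos, 8 from B6 mothers and 8 from Cast mothers, gave allele ratios that did not enter the choice of the groups.

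The groups were alike in depth, with 292486 to 5370322 reads on genes and a median of 2283450.5 in B6/Cast embryos, and 245220 to 5134607 with a median of 2292026 in B6/B6 embryos. Both codes were present in each of the 14 sequencing lanes. Somite number, which orders embryos by age, was 48.4 ± 2.83 (SD, n = 84) in B6/Cast and 49.3 ± 3.13 (n = 63) in B6/B6 embryos, a difference of -0.88 somites (two-sided permutation test, p = 0.0791). The share of genes on the other autosomes that were B6/Cast was 49.3% ± 10.1 and 46.8% ± 8.15 (two-sided permutation test, p = 0.108). There were 32 females and 52 males, as judged by Xist, among the B6/Cast embryos and 29 and 34 among the B6/B6 embryos. Markers of heart, liver and yolk sac, nerve and blood cells were read in both groups, whereas the 7 placental and decidual markers summed to a median of 0 RPM (a gene's reads scaled to 1000000 reads on genes) in each, with 3 of them at 0 in every embryo and a highest sum of 22.9 RPM in B6/Cast and 10.2 RPM in B6/B6 embryos.

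RNase P is the enzyme that removes the 5′ leader from precursor tRNAs. It consists of 1 catalytic RNA, the product of Rpph1, and a set of protein subunits, most of which it shares with RNase MRP, the enzyme of ribosomal RNA processing whose RNA is made by Rmrp. Pop1 is the largest protein of both enzymes and binds their RNAs directly. A genetic difference can change a gene on the same chromosome copy, in cis, or a gene elsewhere, in trans. In an N2 cross a cis difference lowers or raises the expression of a linked gene in every embryo with the Cast copy, and in F1 embryos the same difference shifts the share of reads from each allele.

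Rpph1 is transcribed from the minus strand. The mm9 annotation used here does not hold the symbol, and lists between its table neighbours Ccnb1ip1 and Parp2 a single RNA gene of the same strand, AC027184.1 (a misc_RNA), at chr14:51427124-51427442. Parp2, which encodes a DNA-damage sensing poly(ADP-ribose) polymerase, starts on the plus strand at position 51427621, so that 178 bases separate the genes. This stretch is shown because both genes that flank it were measured and start from it in opposite directions. It reads, 5′ to 3′ on the strand of Rpph1 (NCBIM37, which is mm9, chr14:51427443-51427620), with the matches to 2 searched motifs in capitals:

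between Rpph1 and Parp2: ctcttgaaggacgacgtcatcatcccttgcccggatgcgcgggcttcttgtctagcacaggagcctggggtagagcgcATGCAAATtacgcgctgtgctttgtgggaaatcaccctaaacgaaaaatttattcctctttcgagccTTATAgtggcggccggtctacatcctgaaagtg

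The search was for the octamer ATTTGCAT and for TATAA on either strand. The octamer lies 92 bases and the TATAA 28 bases before Rpph1, each on the opposite strand, and the matches do not overlap. Of the 32851 RefSeq promoters (GRCm38.p6) cut to the 178 bases before the start, 1.19% hold the octamer and 16.64% hold TATAA on either strand. The match is one of letters, and binding there was not measured.

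Rpph1 was read at a low level. In the 84 B6/Cast embryos it ranged from 3.13 RPM to 27.9 RPM with a median of 7.44 RPM, and in the 63 B6/B6 embryos from 1.94 RPM to 24.5 RPM with a median of 9.37 RPM. The ranges overlapped almost completely, and 23 B6/Cast embryos lay above the B6/B6 median. With lane and somite number in the fit, the log2 difference (B6/Cast minus B6/B6, the sign used throughout) was -0.24 with an SE of 0.09, or 0.846 times the B6/B6 level. It was below 0 in 12 of 14 lanes and in 21 of the 25 litters that held both codes. RNA polymerase III makes this RNA, normally without a poly(A) tail, and the libraries were made from poly(A)-selected RNA, so these reads are not a measure of all RNase P RNA. The share of reads from the B6 allele (B6 allele fraction, BAF) in F1 embryos was 0.483 ± 0.105 (SD, n = 8) with B6 mothers and 0.452 ± 0.134 (n = 8) with Cast mothers, over 424 allele-informative reads. It did not pass against 0.5 (limma, adjusted p = 0.366). Each BAF lay on the Cast side, and 61.5% of the allele-informative reads in N2 B6/Cast embryos were Cast, while the total was lower in these embryos.

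The tables list 3 further RNase P RNA-like genes, Rprl1, Rprl2 and Rprl3, on chromosomes 6, 3 and 8. Rprl1 and Rprl2 had no read in either group. Rprl3 had 21 reads, spread over 15 of the 84 B6/Cast embryos, and none in the 63 B6/B6 embryos. Pooled over each group, the 0.114 RPM of B6/Cast embryos were 5.20 times the level of the 3 reads that a count of 0 allows in B6/B6 embryos. The counting error of the 21 reads is not included in this ratio. All 21 allele votes (the reads' counts of support for an allele at SNPs) were for Cast. Of the 15 embryos, 7 were B6/B6 at Rprl3 itself by the deposited code, and these gave 10 Cast votes and 0 B6 votes. In F1 embryos Rprl3 had 94 reads, at least 1 in each of the 16 embryos, with 41 Cast votes and 0 B6 votes. Rprl3 was too low for the main test and was named after its values were seen, so no test is given. Reads of Rprl3 and of the Cast copy of Rpph1 cannot be told apart in a count table where their sequences match.

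Pop1 (chr15:34425059-34460403) was lower in B6/Cast embryos. It ranged from 2.89 RPM to 25.1 RPM with a median of 15.2 RPM in B6/Cast embryos and from 4.74 RPM to 36.9 RPM with a median of 23.99 RPM in B6/B6 embryos. The groups overlapped, although 3 of the 84 B6/Cast embryos lay above the median of the B6/B6 embryos once library size was scaled. The log2 difference was -0.53 with an SE of 0.07, or 0.694 times the B6/B6 level. It was below 0 in 13 of the 14 lanes and in 23 of the 25 litters with both codes, with a median over litters of -0.66. On the first flowcell alone it was -0.48 and on the second -0.55.

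**Figure D1:**
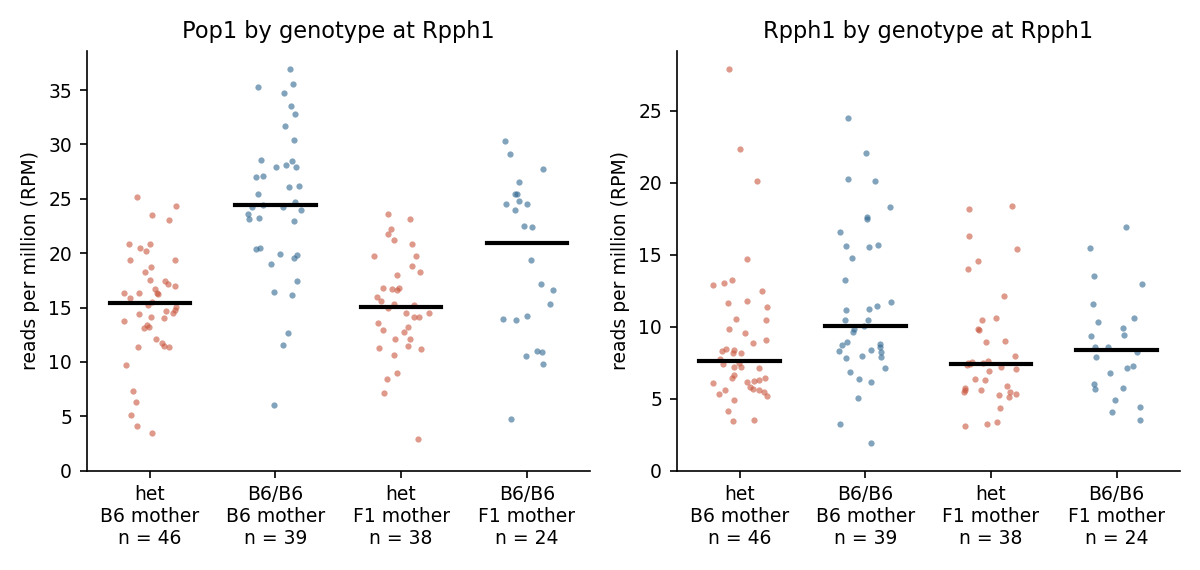
RPM (linear axis) of Pop1 (left) and Rpph1 (right) in each N2 embryo, by genotype at Rpph1 and by mother. Points are embryos and black lines medians. In Pop1 the B6/Cast medians stand at 15.4 RPM (B6 mothers) and 15.1 RPM (F1 mothers), below the B6/B6 medians of 24.4 RPM and 20.9 RPM.

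Pop1 was also described by the mother's genotype. B6/Cast embryos of F1 mothers had the Cast copy from the mother, and those of B6 mothers had it from the father. The mother's genotype and the parent that gave the Cast copy therefore cannot be told apart. With B6 mothers the medians of Pop1 were 15.4 RPM in 46 B6/Cast and 24.4 RPM in 39 B6/B6 embryos, and the log2 difference was -0.70 (SE 0.09). With F1 mothers they were 15.1 RPM in 38 and 20.9 RPM in 24 embryos, and the log2 difference was -0.23 (SE 0.11). The B6/Cast medians thus lay within 1 RPM of each other and the B6/B6 medians further apart. In litters of B6 mothers 15 of 15 differences were below 0, and in litters of F1 mothers 8 of 10. The only lane with a difference above 0 was lane L, of F1 mothers only, at 0.67 with 8 B6/Cast and 3 B6/B6 embryos. Lanes C, D, E and G, also of F1 mothers only, ranged from -0.62 to -0.05. The fitted difference between mothers was 0.40 for Pop1 (SE 0.14), given with no test. Across the 9762 genes the interaction passed for 0 (0.0%), with 270 genes, or 2.77%, at an unadjusted p under 0.05. limma voom likewise called 0. Of the 14 lanes, 13 held embryos of a single kind of mother, so that the mother's own effect on a level and that of the lane cannot be told apart, and the interaction compares differences within lanes.

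The Pop1 difference was of similar size in embryos of either genotype at Pop1 itself. In embryos B6/Cast at Pop1, Pop1 was 15.7 ± 5.10 RPM (SD, n = 40) when they were B6/Cast at Rpph1 and 22.4 ± 6.78 RPM (n = 29) when they were B6/B6 there. In embryos B6/B6 at Pop1 the values were 14.8 ± 4.58 RPM (n = 43) and 22.8 ± 7.93 RPM (n = 34). By least squares with both codes in the fit, the log2 difference was -0.53 (SE 0.08) for the code at Rpph1 and 0.11 (SE 0.08) for the code at Pop1. Alleles of Pop1 were read too rarely to compare. In the N2 embryos B6/Cast at Pop1 there were 9 B6 and 7 Cast votes with the Cast copy at Rpph1 and 7 and 12 votes without it.

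The code used to divide the embryos can be moved along chromosome 14, since recombination in the F1 parent separates the genes. At Rpph1 the log2 difference of Pop1 by least squares was -0.53 (SE 0.08). It was largest relative to its SE, at -0.57 (SE 0.08), for 3 genes from Gja3 to Gjb6, between 57654445 and 57742140. It was -0.37 (SE 0.09) at the first gene of the chromosome in the table, Gm2897, and 0.004 (SE 0.09) at the last, Fgf14. The level of Rpph1 itself varied less with the code used, from -0.19 to -0.29. Its difference was largest relative to its SE for 33 genes from Wdfy2 to Pnoc (-0.29, SE 0.09), away from Rpph1. It was -0.25 (SE 0.09) at Rpph1 and -0.23 (SE 0.09) at Fgf14. Values along the chromosome come from the same embryos and are not independent. From Rpph1 to Mettl3, a stretch of 1.498 Mb with 46 genes of the table, the code was identical in all 147 embryos. Around it, from Exoc5 (start 49631821) to Olfr1507 (start 53109610), every embryo with a called code had that of Rpph1. Ttc5 is among these genes, with 146 of 146 called codes the same. No gene from Exoc5 to Olfr1507 can be told apart from Rpph1 by genotype.

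**Figure D2:**
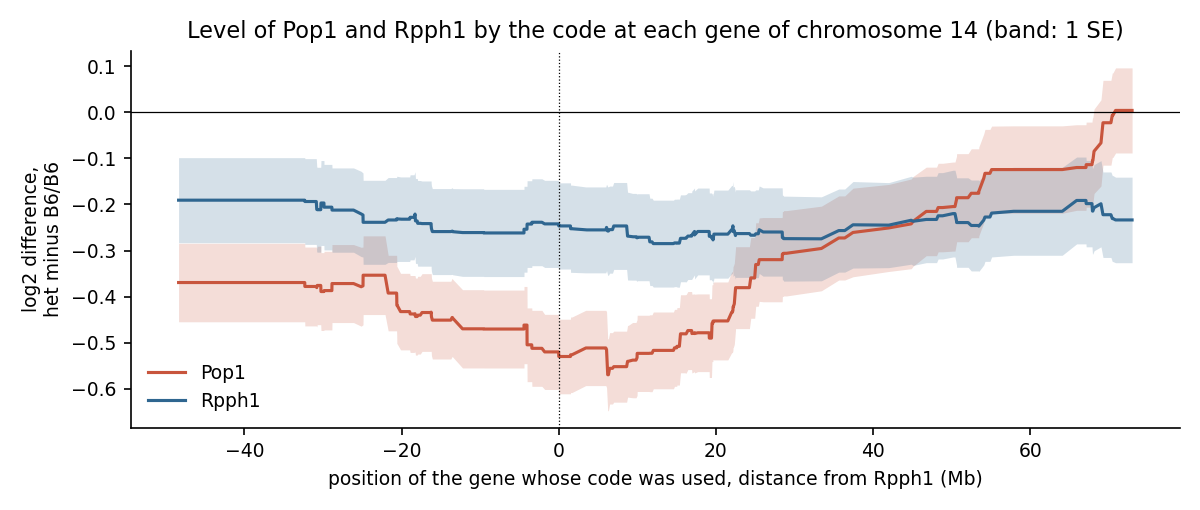
Log2 difference in level, B6/Cast minus B6/B6, of Pop1 (red) and Rpph1 (blue) when the embryos are divided by the code at each gene of chromosome 14, with distance from Rpph1 in Mb on the horizontal axis. Bands are 1 SE and the dotted line marks Rpph1. The Pop1 curve goes from -0.37 at the left end through -0.57 to 0.004 at the right end.

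The other subunits gave no difference that passed. Rpph1 and Pop1 apart, 9 of the listed components of RNase P and RNase MRP could be tested, of which 0 rose and 0 fell (edgeR). Of these 9, 1 had an unadjusted p under 0.05 (Rpp14, of chromosome 14), and DESeq2 and limma voom called 0. Over all genes tested 0.246% were called and 3.01% had an unadjusted p under 0.05, and on chromosome 14 25.8% had one. At these shares most lists of 9 genes would hold none called. The median log2 difference of the 9 components was 0.08, with 7 above 0 and 2 below, beside -0.0009 over all genes tested. Rpp14, which lies on chromosome 14 with 85.03% of embryos sharing the code of Rpph1, stood at -0.20 (SE 0.09, edgeR, adjusted p = 0.9999; permutation within lanes, two-sided p = 0.0593). Its median was 18.2 RPM in B6/Cast and 15.8 RPM in B6/B6 embryos, so that the raw medians and the lane-adjusted difference had opposite signs, and with its own code in the fit the difference by the code at Rpph1 was -0.02. Rpp21, the subunit read most often, had medians of 142 RPM and 141 RPM and a log2 difference of 0.09 (SE 0.05, permutation p = 0.0728). Pop4, Pop5 and Pop7 stood at 0.09, 0.08 and 0.09 (SE 0.10, 0.07 and 0.06), with permutation p of 0.408, 0.395 and 0.256. Rpp25, Rpp30, Rpp38 and Rpp40 stood at 0.02, 0.15, -0.08 and 0.001 (SE 0.08, 0.16, 0.13 and 0.12), with permutation p of 0.223, 0.645, 0.691 and 0.939. For Rpp30 and Rpp38 the difference in mean residual log2 CPM that was permuted had the other sign, -0.09 and 0.07. Rmrp, at medians of 2.32 RPM and 2.85 RPM, was below the mean of 5 RPM needed for a test.

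**Figure D3:**
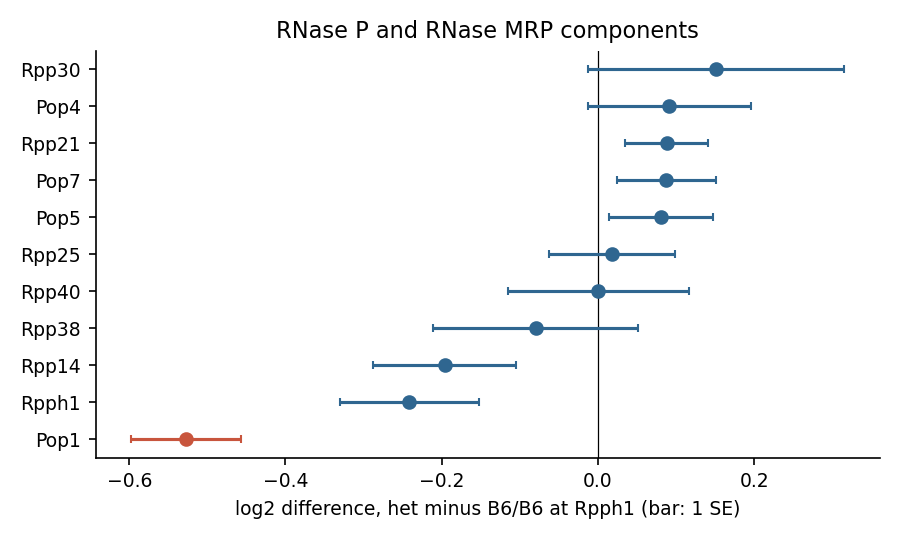
Log2 difference, B6/Cast minus B6/B6 at Rpph1, of the 11 components of RNase P and RNase MRP that were read at a mean of at least 5 RPM. Points are estimates of the edgeR fit and bars 1 SE. Pop1 (red) lies at -0.53 and the others between -0.24 and 0.15.

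Other parts of tRNA and rRNA production were measured as lists. Of 17 tested genes of tRNA processing 0 passed, with a median log2 difference of -0.01, and Tsen34, of the tRNA splicing endonuclease, had the smallest p in the list (log2 -0.53, SE 0.18, edgeR, adjusted p = 0.6733). Of 18 genes of RNA polymerase III and its factors 0 passed, with a median of 0.02. Polr3a, the largest polymerase III subunit and itself on chromosome 14, stood at 0.22 (SE 0.06, edgeR, adjusted p = 0.2601). Of 21 genes of ribosome biogenesis 0 passed, with a median of -0.02. In these lists 1, 1 and 0 genes had an unadjusted p under 0.05, beside 3.01% of all genes tested, of which 0.246% were called.

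On chromosome 14 itself 326 genes were tested and 23 of them (7.06%) passed at an adjusted p under 0.05 over all 9762 autosomal genes (edgeR). Embryos came from 29 litters. With litter as a block beside lane 15 of the 23 were called, and with litter in place of lane 14. The 8 not called in either fit were Mipep, Akap11, Il17d, Pinx1, Commd6, Myst4, Ecd and Sdr39u1, and Nt5dc2 was not called in the second. Of the 23 genes 15 were higher in B6/Cast embryos (4.6% of the genes tested on the chromosome) and 8 lower (2.45%), and 84 genes (25.8%) had an unadjusted p under 0.05. On the other autosomes 0 of the genes beside Pop1 passed. Pop1, for which the comparison was proposed, was past the threshold by that choice and is counted in the shares that follow (1 of 9436, or 0.0106%) with nothing read from it. There 210 genes (2.23%) had an unadjusted p under 0.05, Pop1 included, and DESeq2 and limma voom called 0 genes beside Pop1. Over all autosomes 24 genes (0.246%) were called, 15 of them higher (0.154%) and 9 lower (0.0922%), and 294 (3.01%) had an unadjusted p under 0.05. Genes near the threshold were Ecd and Sdr39u1 inside it (adjusted p = 0.0478 for each) and Samd8 and Pcdh17 outside it (adjusted p = 0.069 and 0.0767). The median size of the log2 difference, sign ignored, was 0.10 on chromosome 14 and 0.05 on the other autosomes.

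Called genes lay between Rpl15, 32.3 Mb before Rpph1, and Commd6, 50.6 Mb after it, and none of the genes tested beyond these was called. Within 10 Mb of Rpph1, where at least 93.9% of embryos with a called code had that of Rpph1, 9 of 117 tested genes were called. The counts were 3 of 52 from 10 to 25 Mb before it and 6 of 45 further before, where the shared code had a median of 87.8%. After Rpph1 they were 3 of 62 from 10 to 25 Mb and 2 of 48 further on, where the median was 69.4%. The code at Rpph1 stands for the code at a distant gene in part of the embryos only. Where a distant difference is in cis, the difference by the code at Rpph1 would be the smaller on average. When each gene's own code was put beside that of Rpph1 (least squares, 305 genes of chromosome 14 whose codes were not identical to it), 31 (10.2%) passed for their own code and 0 for that of Rpph1. On the other autosomes 21.6% of genes passed for their own code in the same fit, and on chromosome 14 with the own code alone 68 of 326 (20.9%) passed. Linked genes shared the code of Rpph1 in most embryos, which widens the errors of a fit with both codes. The signs were the same by the own code as by that of Rpph1 in 23 of the 23 called genes, and the size was larger in 17.

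**Figure D4:**
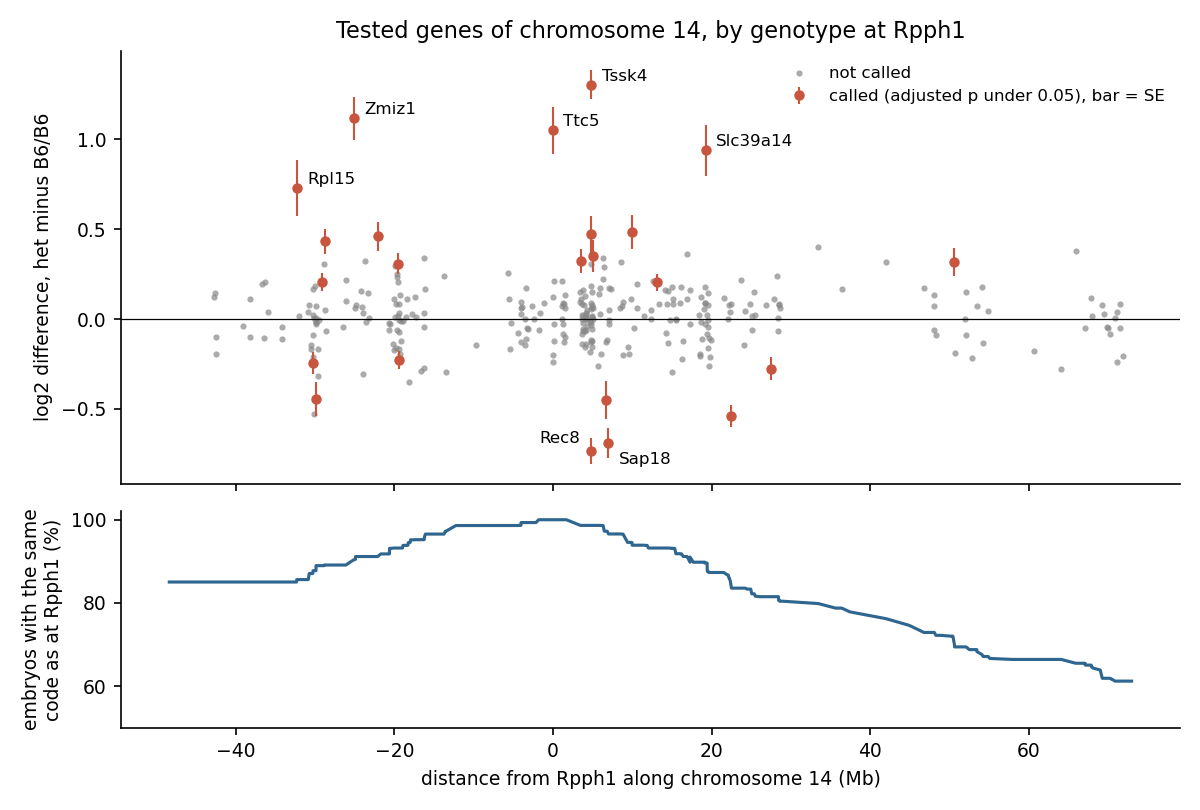
Above, the log2 difference of each tested gene of chromosome 14 with a known position, against distance from Rpph1 in Mb. Red points with SE bars passed at an adjusted p under 0.05. Below, the share of embryos whose code equalled that at Rpph1, among those of the 147 with a called code at each gene. It falls from 100% near Rpph1 to 85.03% at one end and 61.2% at the other.

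Close to Rpph1 the difference that passed was that of Ttc5, which encodes a cofactor of p53 that also degrades tubulin mRNAs. It lies on the far side of Ccnb1ip1 (chr14:51385090-51405193). Ttc5 ranged from 0.779 RPM to 17.6 RPM with a median of 6.80 RPM in B6/Cast and from 0 to 17.3 RPM with a median of 3.67 RPM in B6/B6 embryos. The ranges overlapped, and 69 of 84 B6/Cast embryos lay above the B6/B6 median. The log2 difference was 1.05 (SE 0.13, edgeR, adjusted p = 5.73e-10). The F1 embryos showed no such tilt to Cast, with a BAF of 0.536 ± 0.102 (SD, n = 8) and 0.570 ± 0.098 (n = 8) in the 2 crosses over 350 votes (limma, adjusted p = 0.0872).

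The other tested genes within 1 Mb of Rpph1 did not pass. Parp2, which starts from the sequence shown above, had medians of 42.8 RPM and 40.6 RPM and a log2 difference of 0.13 (SE 0.06). Tep1, a telomerase-associated protein, stood at -0.20 (SE 0.08). Osgep, an enzyme of tRNA modification, stood at 0.21 (SE 0.11), with medians of 61.8 RPM and 24.2 RPM but ranges of 1.82 RPM to 212 RPM and 4.21 RPM to 169 RPM, and its difference was 0.42 on the first flowcell and 0.02 on the second. Apex1, the DNA repair endonuclease, and Tmem55b overlap each other on opposite strands and stood at -0.03 (SE 0.10) and -0.12 (SE 0.08). Ccnb1ip1, the neighbour on the other side, had 44 reads in 24 of the 84 B6/Cast embryos and 1 read in 1 of the 63 B6/B6 embryos, too few for the main test. It was named after its values were seen, so no test is given.

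A group of called genes lay 4.8 to 5.1 Mb from Rpph1, where 98.6% of embryos shared its code. Tssk4, a testis-specific serine kinase, had the smallest p of the chromosome. It ranged from 2.53 RPM to 22.6 RPM with a median of 12.0 RPM in B6/Cast and from 0 to 12.1 RPM with a median of 4.98 RPM in B6/B6 embryos, and 41 of 84 B6/Cast embryos lay above the highest B6/B6 embryo after scaling. The log2 difference was 1.31 (SE 0.08, edgeR, adjusted p = 1.85e-30), or 2.47 times the B6/B6 level. It had 25.98 allele votes in all F1 embryos, too few to test. Rec8, the meiotic cohesin subunit, was lower in B6/Cast embryos, with medians of 13.5 RPM and 21.7 RPM and 2 of 84 B6/Cast embryos above the B6/B6 median. Its log2 difference was -0.73 (SE 0.07, edgeR, adjusted p = 6.48e-15). In F1 embryos nearly all allele votes of Rec8 were for B6, with a BAF of 0.979 ± 0.059 (SD, n = 8) and 0.983 ± 0.032 (n = 8) over 140 votes.

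Between Rec8 and Tssk4 lies Tm9sf1, a membrane protein, with medians of 8.64 RPM and 5.97 RPM (log2 0.47, SE 0.10, edgeR, adjusted p = 0.00513). Its F1 allele ratio pointed to higher B6 expression, with BAF of 0.638 ± 0.107 (SD, n = 8) and 0.660 ± 0.101 (n = 8) and an adjusted p of 0.000467 (limma), so total level and allele ratio had opposite signs. Tm9sf1 overlaps Ipo4 on the same strand by 1931 bases in the annotation, and Ipo4 stood at -0.02. Sdr39u1, a short-chain dehydrogenase, had medians of 17.8 RPM and 13.8 RPM (log2 0.35, SE 0.09, edgeR, adjusted p = 0.0478).

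Further genes within 10 Mb were called in both directions. Sap18, a subunit of the Sin3 histone deacetylase complex, had a median of 15.0 RPM in B6/Cast and 23.7 RPM in B6/B6 embryos. Its log2 difference was -0.69 (SE 0.08, edgeR, adjusted p = 1.37e-10), and its F1 BAF was 0.900 ± 0.033 (SD, n = 8) and 0.931 ± 0.051 (n = 8). Il17d, a cytokine of the interleukin-17 family, fell from a median of 6.82 RPM to 4.07 RPM (log2 -0.45, SE 0.11, adjusted p = 0.0207). Mipep, a mitochondrial peptidase, rose from 26.7 RPM to 41.0 RPM (log2 0.48, SE 0.09, adjusted p = 0.000708). Slc7a7, an amino acid transporter, rose from 18.0 RPM to 21.3 RPM (log2 0.32, SE 0.07, adjusted p = 0.00265). The F1 allele ratios of these 4 genes all passed in the direction of their total levels.

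Further before Rpph1 the largest difference was that of Zmiz1, a transcriptional coactivator, 25.1 Mb away. Zmiz1 ranged from 3.71 RPM to 99.9 RPM with a median of 37.4 RPM in B6/Cast and from 2.05 RPM to 101 RPM with a median of 12.0 RPM in B6/B6 embryos. The full ranges coincided, but 80 of 84 B6/Cast embryos lay above the B6/B6 median. The log2 difference was 1.12 (SE 0.12, edgeR, adjusted p = 1.24e-12), and 1.34 by its own code. It was 1.67 on the first flowcell and 0.68 on the second. In F1 embryos both alleles of Zmiz1 were read about equally over 1729.48 votes, with BAF of 0.529 ± 0.087 (SD, n = 8) and 0.519 ± 0.043 (n = 8) and an adjusted p of 0.265 (limma).

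Wnt5a, the secreted ligand that directs limb and axis outgrowth, was the 1 gene called of 11 tested in the list of chromosome 14 developmental regulators, whose median log2 difference was -0.05, a share near the 7.06% of all tested genes of the chromosome. It ranged from 3.97 RPM to 196 RPM with a median of 66.8 RPM in B6/Cast and from 7.02 RPM to 157 RPM with a median of 44.7 RPM in B6/B6 embryos. The log2 difference was 0.46 (SE 0.08, edgeR, adjusted p = 9.88e-05) and was nearly the same with B6 mothers (0.45) and F1 mothers (0.46). The Cast allele gave more reads in F1 embryos, with BAF of 0.270 ± 0.025 (SD, n = 8) and 0.310 ± 0.021 (n = 8). Of the other regulators Pcdh17, a protocadherin, stood at 0.40 (SE 0.11, adjusted p = 0.07667) and Bmpr1a, a BMP receptor, at -0.28 (SE 0.11, adjusted p = 0.9999).

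Other called genes before Rpph1 had smaller differences. Comtd1, a methyltransferase, rose from a median of 49.6 RPM to 63.1 RPM (log2 0.43, SE 0.07, adjusted p = 4.01e-06). 2010107H07Rik, which overlaps Pbrm1 on the opposite strand, rose from 49.9 RPM to 76.4 RPM (log2 0.31, SE 0.06, adjusted p = 0.000667), and its reads and those of Pbrm1 cannot be told apart without strand. Rpl15, a ribosomal protein gene, rose from 2.51 RPM to 8.57 RPM (log2 0.73, SE 0.16, adjusted p = 0.00513), a low level for a gene of its kind and one that reads shared with near-identical copies could alter. Myst4, a histone acetyltransferase, rose by 0.21 on the log2 scale (SE 0.05, adjusted p = 0.0478).

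Of the called genes before Rpph1, 3 were lower in B6/Cast embryos. Fut11, a fucosyltransferase, had medians of 6.93 RPM and 7.62 RPM and a log2 difference of -0.44 (SE 0.10, adjusted p = 0.00581). Nt5dc2, a nucleotidase-like protein and the most highly read of the called genes, had medians of 543 RPM and 646 RPM (log2 -0.23, SE 0.05, adjusted p = 0.00722). Ecd, a cell cycle regulator, had medians of 73.4 RPM and 98.5 RPM (log2 -0.24, SE 0.06, adjusted p = 0.0478).

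After Rpph1, beyond 10 Mb, 5 genes were called. Slc39a14, a zinc and iron transporter 19.3 Mb away, had medians of 9.31 RPM and 3.64 RPM, and 73 of 84 B6/Cast embryos lay above the B6/B6 median. Its log2 difference was 0.94 (SE 0.14, edgeR, adjusted p = 1.53e-06), and 1.26 by its own code. The F1 BAF was 0.182 ± 0.104 (SD, n = 8) and 0.175 ± 0.066 (n = 8). Med4, a subunit of the Mediator complex, had medians of 57.5 RPM and 80.3 RPM (log2 -0.54, SE 0.06, adjusted p = 3.18e-12), and an F1 BAF of 0.732 ± 0.027 (n = 8) and 0.730 ± 0.021 (n = 8). Pinx1, an inhibitor of telomerase, rose by 0.20 (SE 0.05, adjusted p = 0.0325). Akap11, an anchor for protein kinase A, fell by 0.28 (SE 0.06, adjusted p = 0.0192), with an F1 BAF of 0.503 ± 0.079 (n = 8) and 0.514 ± 0.111 (n = 8). Commd6, 50.6 Mb away, rose by 0.32 with the code at Rpph1 and by 0.63 with its own (edgeR for the first, SE 0.08, adjusted p = 0.0409).

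The F1 allele ratios, which were measured in other embryos, could be set beside the total levels. Of 417 genes of chromosome 14 with at least 20 votes in each F1 cross 190 (45.6%) passed against an even ratio (limma), beside 46.0% of genes on all autosomes. A BAF predicts the total of an embryo with 1 Cast copy relative to one with none as 1/(2 × BAF) if the difference is in cis alone. Across 294 tested genes of chromosome 14 the observed log2 difference and the log2 of this prediction gave Pearson's r = 0.455 and Spearman's rho = 0.423, a description across genes that share embryos and are not independent. The signs were the same in 191 of the 294 genes and in 18 of the 22 called genes with an F1 ratio. The 4 called genes of opposite sign were Zmiz1, Ttc5, Tm9sf1 and Myst4, each higher in B6/Cast embryos with an F1 BAF above 0.5. The limma test of the ratio passed in Tm9sf1 and did not pass in Zmiz1, Ttc5 and Myst4.

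**Figure D5:**
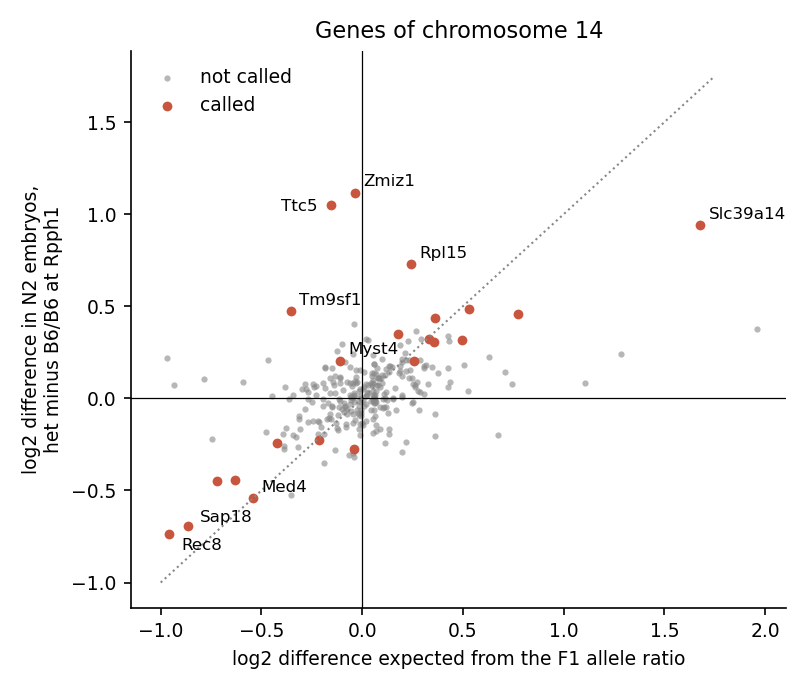
Observed log2 difference in N2 embryos (vertical axis) against the log2 difference that the F1 allele ratio predicts for a cis difference (horizontal axis) for 294 genes of chromosome 14. Red points passed in N2 embryos and the dotted line marks equal values. Of the 22 red points 18 lie where the signs are the same, and Zmiz1, Ttc5, Tm9sf1 and Myst4 lie where they are not.

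Outside chromosome 14 the 5 genes after Pop1 by p, which were chosen for that and did not pass, were Tuba1a, Plk1, Yrdc, Mir451 and Insm1. Their permutation p test the same differences in the same embryos, are not adjusted for this choice and add no support. Tuba1a, an alpha-tubulin, had medians of 386 RPM and 382 RPM and a log2 difference of -0.24 (SE 0.07, edgeR, adjusted p = 0.253), with a permutation p of 0.0011 for genotypes permuted within lanes. The raw medians of Tuba1a and its fitted difference had opposite signs. Its tubulin paralogs are close in sequence, so its count is uncertain. Plk1, a mitotic kinase, had medians of 96.6 RPM and 103 RPM and a log2 difference of -0.18 (SE 0.05, adjusted p = 0.269, permutation p = 0.00066). Yrdc, an enzyme of tRNA threonylcarbamoylation, had medians of 25.4 RPM and 27.7 RPM and a log2 difference of -0.22 (SE 0.07, adjusted p = 0.352, permutation p = 0.00106). Mir451, the locus of an erythroid microRNA, had medians of 420 RPM and 355 RPM and a log2 difference of 0.40 (SE 0.12, adjusted p = 0.377, permutation p = 0.00295). The 3 blood markers Hba-x, Hbb-y and Hba-a1 stood at 0.19, 0.16 and 0.13 and did not pass, and their part in the Mir451 value was not tested. Insm1, a transcription factor of neuroendocrine cells, had medians of 4.74 RPM and 4.62 RPM and a log2 difference of -0.43 (SE 0.13, adjusted p = 0.377, permutation p = 0.0151), again opposite in sign to the raw medians. Each of the 5 differences was smaller in size than that of Pop1. Tuba1a, Plk1, Yrdc and Mir451 had the same sign on both flowcells, and Insm1 was high enough to be fitted on the second only.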

How the data were processed

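Poly(A)-selected RNA of single whole E11.5 embryos was sequenced by 3SEQ. According to the study's methods and the labels the authors mapped reads with Bowtie2 to mm9 and to a Cast genome built from known SNPs, discarded reads whose second-best alignment lay within 3 edits, and counted reads on RefSeq exons; whether counting used strand is not given in the sources used here. The deposited expression tables hold raw read counts per gene. The deposited allele tables hold estimated counts, in which a read that covers SNPs splits a single vote evenly among them, each part going to the allele it matches. The authors deposited genotype codes inferred from these votes by a hidden Markov model, so allele votes of N2 embryos are part of the rule that formed the groups. A code of 0.0 was read as not called.

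The members and gene lists were chosen with earlier results of these data known. Of 168 N2 columns, 8 belonged to samples with no group and others had no code, and 7 genotyped embryos without a somite number were left out of the fit. Counts of the 9762 autosomal genes that averaged 5 RPM or more were fitted with edgeR 4.0.16 (R 4.3.3, TMM scaling, quasi-likelihood F test) on genotype at Rpph1, lane and somite number, with Benjamini-Hochberg adjustment over all of them and a threshold of 0.05. RPM is scaled to the reads on genes. F1 votes were tested with limma 3.58.1 on log2((B6 + 0.5)/(Cast + 0.5)) per embryo for genes with at least 20 votes in each cross. Permutation tests of gene levels by genotype used 100000 resamples of the genotype within lanes on log2 CPM with lane and somite number regressed out. Those of somite number and of the B6/Cast share on other autosomes used 100000 resamples over all embryos, on unadjusted values. Own-code fits were least squares on log2 CPM. Alternatives included DESeq2 1.42.0 and limma voom. Gene positions come from GENCODE vM1 (NCBIM37) by symbol, chromosome and strand, for 21050 genes. On simulated counts for these 147 embryos and 9762 genes the fit recovered 44% of 50 genes changed 1.25-fold and 98% of 50 changed 1.5-fold, with 9 false calls. The simulated counts held no litter effect and were drawn independently for each gene, so errors from litters or linked levels are not measured. Litter numbers name a litter and its mother, and litter was fitted as a replicate block only as an alternative. Embryos of one litter share a mother, and p-values measure the spread between single embryos.

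The genes named were Rpph1 and Pop1, on chromosome 14 the 20 called genes with the smallest p (the other 3 called were added) and every tested gene within 1 Mb of Rpph1, on other autosomes the called genes and the 5 with the smallest p, every measured RNase P or MRP component, called members and up to 2 others of each other list, and the 5 genes with the smallest p for the interaction with mother. Intervals and limits from counts cover counting error only, and the limit for Rprl3 covers that of the B6/B6 embryos alone.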

Additional observations from a re-analysis of the deposited data

Results flagged for a closer look

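In 50 sets of F1 embryos (25 genes in 2 crosses) the most extreme allele ratio was set against the others by Dixon's ratio of its gap to the range, which chance exceeds in about 1 of 20 sets, and 6 sets exceeded it. In Rec8 one embryo of the B6 × Cast cross had a BAF of 0.833 over 6 votes while the other 7 were at 1.0 (ratio 1.0). In Med4 one Cast × B6 embryo stood at 0.685 and the others between 0.722 and 0.748 (ratio 0.585), over 1148.49 votes. In Sap18 one Cast × B6 embryo stood at 0.814 over 247 votes and the others between 0.919 and 0.988 (ratio 0.606). In Rpl15 one embryo of each cross stood at 0.75, over 4 votes (ratio 0.605) and over 12 votes (ratio 0.556), with the others between 0.429 and 0.556 and between 0.188 and 0.438. In Tm9sf1 one B6 × Cast embryo stood at 0.889 over 27 votes and the others between 0.533 and 0.65 (ratio 0.672). No gene's difference passed for the interaction with the mother.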

How the results depend on the processing

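Called on chromosome 14 were 23 genes, and the count stayed within 1.5 times of this under 13 alternatives (other scaling, DESeq2, limma voom, other low-count filters, sex, mother or heterozygosity elsewhere as terms, no somite number, at least 1000000 reads, rank-sum tests with 15 components, an adjusted p under 0.01). With litter as a replicate block in place of lane 14 were called and with lane kept, an alternative chosen after seeing the data, 15, all among the 23. The 8 genes lost with lane kept had adjusted p from 0.0519 to 0.70, and the block called no RNase P or MRP subunit. Without lane or litter 10 were called, on flowcells 1 and 2 alone 13 and 8, and with B6 or F1 mothers only 8 and 8 (the single flowcells and mothers hold fewer embryos, and the cause was not tested for lane and litter). With own codes in the fit 0 passed for Rpph1, an alternative that cannot be fitted for Rpph1 itself. Under the 19 alternatives of the fit 6 of the 23 genes were called each time (Tssk4, Rec8, Zmiz1, Med4, Sap18 and Ttc5), and all 23 kept their sign. Beside Pop1, 0 genes of other autosomes were called under 19 alternatives. With every gene that had a read tested, 2 were called (Rprl3, which has no read in B6/B6 embryos, and 4930592I03Rik), and by the rank-sum test 2 were called (Pex26 and 2310022A10Rik), and the cause was not tested. The Pop1 difference ranged from -0.70 to -0.23, the latter with F1 mothers only. F1 allele ratios of chromosome 14 passed for 115 genes in Cast × B6 embryos alone, against 190.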

Other observations

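4930592I03Rik, a gene of chromosome 18 named after its values were seen, had 87 reads in 19 of 84 B6/Cast embryos and 6 reads in 5 of 63 B6/B6 embryos, with 22 of the reads in 1 embryo. When every gene with a read was tested its log2 difference was 2.40 (SE 0.50), given with no p-value because that test picked the gene. In F1 embryos, all B6/Cast at Rpph1 and sequenced more deeply, it had 10 reads in 6 of the 16 embryos. The depth of such genes, under 1 read per embryo on average, limits what they can show.

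Within a genotype at Rpph1 the levels of Pop1 and Rpph1 did not go together. Over 84 B6/Cast embryos, with lane and somite number regressed out, Pearson's r was 0.11 (two-sided permutation p = 0.325, adjusted over the 2 groups 0.518) and Spearman's rho -0.04 (p = 0.722), and leaving out the 2 embryos with the most extreme Rpph1 gave r = -0.07. Over 63 B6/B6 embryos r was -0.08 (p = 0.518, adjusted 0.518), rho -0.08 (p = 0.558), and r without the 2 farthest -0.10. At a median of 7.44 RPM and 9.37 RPM Rpph1 was counted in few reads per embryo, so counting error enters these values.

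The 5 genes with the smallest p for the interaction of genotype at Rpph1 and mother did not pass (edgeR, adjusted p = 0.9999 for each in the list that follows). Fam173b stood at -0.36 with B6 mothers and 0.28 with F1 mothers (unadjusted p = 0.000138), Ubap2l at -0.14 and 0.12, Acsf3 at 0.14 and -0.26, Cd82 at 0.17 and -0.31, and 2810021B07Rik at -0.38 and 0.60.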
